A study of Mus musculus with 2 samples.

Results

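The YAP/TEAD genes and matricellular targets described here were 10 of the 23183 genes measured in cultured mouse lung cancer cells: *Ctgf*, *Cyr61*, *Thbs1*, *Ankrd1*, *Amotl2*, *Lats2*, *Yap1*, *Wwtr1*, *Tead1* and *Tead4*. They were chosen by name with the difference between the only 2 libraries in view, in particular the values of *Ctgf*, *Cyr61* and *Thbs1*, so their differences are given as a description and with no test. RNA-seq was made from tumour cells in which *Runx3*, which encodes a RUNX-family transcription factor, can be switched back on by tamoxifen. The library labelled KPR- had the genotype label RUNX3 -/- and the time 0 h, and the library labelled KPR_restored had RUNX3 -/+ and 16 h. The study's methods describe source mice that were K-Ras LSL-G12D/+, p53 flox/flox and Runx3 flox/FSF together with Tomato and Flp ERT2. Their lungs were infected with an adenovirus that carries Cre under the CMV promoter (Ad-Cre), so the cells that became tumours were set by infection and not by a cell type promoter. Both groups therefore shared activated K-Ras, deleted p53 and the Flp ERT2 recombinase, which 4-hydroxytamoxifen (4-OHT) activates on the stopped Runx3 FSF allele. The study describes the restored cells as KPR- cells treated with 4-OHT, but the labels list 1 μM 4-OHT for both libraries. Whether the cells of the 0 h library were exposed is not stated in the sources used here. Each group was 1 library of immortalized cells, so no difference has a replicate check. The study writes of cell lines in the plural and does not say whether both libraries came from the same line. Runx3 restoration cannot be told apart from any difference in cell line, exposure to 4-OHT, time in culture or the library itself.

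*Runx3* RNA did not separate the libraries. Its level was 0.348 FPKM (fragments mapped, scaled to transcript length and to library depth) in KPR- and 0.349 FPKM in KPR_restored, or about 28 and 29 fragments. The difference was 0.0074 on the scale log2(FPKM + 0.005), KPR_restored minus KPR-, which is used throughout, with a 95% interval of -0.79 to 0.81. The group names below are therefore those of the labels. Intervals are exact binomial intervals from fragments estimated from FPKM, and they cover counting error only. The estimated depth was 21.8 M fragments in KPR- and 22.4 M in KPR_restored. A difference of 0.5 or more was counted as higher or lower.

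YAP, encoded by *Yap1*, and TAZ, encoded by *Wwtr1*, are transcriptional cofactors that bind DNA through the TEAD factors. The Hippo kinases, among them LATS2, phosphorylate both and keep them out of the nucleus, and cell density, cytoskeletal tension and matrix stiffness act on the pathway. CTGF and CYR61 of the CCN family and thrombospondin-1 are matricellular proteins, secreted into the matrix where they act on cells through integrins and other receptors rather than as scaffold, and their genes are widely used as readouts of YAP and TAZ. In lung epithelium the pathway is known for its part in growth, repair and cancer.

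The promoters are shown because TEAD factors, through which YAP and TAZ bind DNA, bind the letters GGAATG. The 250 bases before the start in RefSeq (GRCm38.p6) were searched on both strands for GGAATG, for the RUNX letters TGTGGT and TGCGGT, for the AP-1 letters TGACTCA and for the CArG box of serum response factor. Sequences were given for 6 of the 10 genes, in 8 windows. *Ctgf*, *Thbs1*, *Tead1* and *Tead4* had no entry. The windows of *Ankrd1*, *Amotl2* and *Lats2* lay inside the span that GENCODE gives for the gene. For these genes the start used was therefore internal to that span, and the bases before the outermost start were not searched. A window of *Wwtr1* lay partly inside its span. The letters GGAATG were found in 5 of these 6 genes, or 6 of the 8 windows, of which the 2 of *Wwtr1* overlap. They occurred in 12.6% of all 32851 windows of the same length. The windows of the 3 target genes are given 5' to 3' on the gene's strand, with GGAATG or its reverse complement CATTCC in capitals.
Cyr61, chr3:145649986-145650235, minus strand: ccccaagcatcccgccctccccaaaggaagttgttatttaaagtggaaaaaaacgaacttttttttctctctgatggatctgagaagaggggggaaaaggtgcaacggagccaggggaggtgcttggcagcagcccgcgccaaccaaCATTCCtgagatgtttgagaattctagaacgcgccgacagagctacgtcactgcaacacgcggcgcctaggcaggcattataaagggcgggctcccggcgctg
Ankrd1, chr19:36119845-36120094, minus strand: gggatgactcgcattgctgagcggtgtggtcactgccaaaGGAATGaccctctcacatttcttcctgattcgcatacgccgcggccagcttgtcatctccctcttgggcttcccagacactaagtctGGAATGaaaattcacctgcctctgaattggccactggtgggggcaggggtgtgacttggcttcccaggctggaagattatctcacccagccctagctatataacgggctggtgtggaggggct
Amotl2, chr9:102717554-102717803, plus strand: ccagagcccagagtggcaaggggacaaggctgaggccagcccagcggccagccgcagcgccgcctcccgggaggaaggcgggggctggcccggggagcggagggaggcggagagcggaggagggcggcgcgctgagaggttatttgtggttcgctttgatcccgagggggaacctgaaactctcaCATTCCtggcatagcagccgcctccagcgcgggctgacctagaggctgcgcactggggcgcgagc
For the cofactor genes, the 66 bases around the same letters are shown.
Yap1, chr9:8004702-8004767, minus strand: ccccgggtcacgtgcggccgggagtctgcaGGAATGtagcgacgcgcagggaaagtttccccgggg
Wwtr1, chr3:57576011-57576076, minus strand: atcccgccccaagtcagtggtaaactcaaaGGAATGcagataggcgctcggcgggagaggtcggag

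In *Cyr61* the letters lay on the strand opposite to the gene, 103 to 98 bases before the start. *Ankrd1* held them in 2 places, 210 to 205 and 123 to 118 bases before the start. In *Amotl2* they lay on the opposite strand at 65 to 60 bases, and in *Yap1* on the gene's strand at 141 to 136 bases. The *Wwtr1* stretch was shared by the windows of its 2 starts. RUNX letters TGTGGT, present in 14% of all windows, occurred in *Ankrd1* at 226 to 221 bases and in *Amotl2* at 106 to 101 bases, and overlapped no TEAD letters. No match was found in these windows for TGCGGT, held by 5.1% of all windows, for the AP-1 letters TGACTCA (4.46%) or for the CArG box (1.47%), and *Lats2* held none of the searched letters. Such matches describe letters, not binding.

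**Figure D1:**
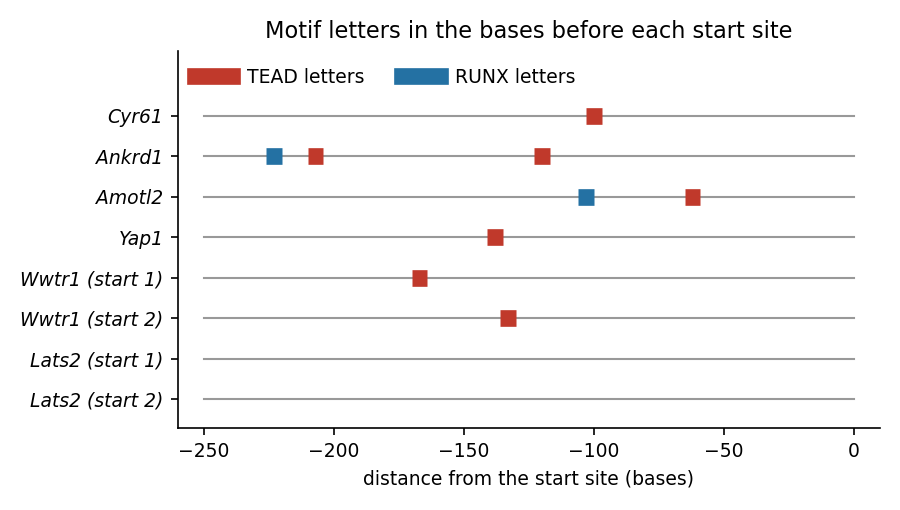
Position of GGAATG (TEAD) and TGTGGT (RUNX) letters in the 250 bases before the start of the genes with a promoter entry. The horizontal axis is the distance from the start in bases, each line is a window, and marks show matches on either strand. *Ankrd1* and *Amotl2* held both kinds of letters.

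Among the secreted targets, *Ctgf* and *Thbs1* were lower in KPR_restored and *Cyr61* was not. *Ctgf* (Ccn2, chr10:24595442-24598683, plus strand, GRCm38), a CCN protein that promotes matrix production and adhesion, was at 54.8 FPKM in KPR- and 25.9 FPKM in KPR_restored. Its difference was -1.08 (95% interval -1.18 to -0.98), from about 2612 and 1269 fragments. *Thbs1* (chr2:118111876-118127133, plus strand) encodes thrombospondin-1, a matrix glycoprotein that can activate latent TGF-β. It was at 12.2 FPKM in KPR- and 3.55 FPKM in KPR_restored, a difference of -1.77 (-1.93 to -1.62), from about 1494 and 449 fragments. *Cyr61* (Ccn1, chr3:145646976-145649981, minus strand), a CCN protein that binds integrins, was at 64.7 and 72.7 FPKM, a difference of 0.17 (0.09 to 0.24). The retained level of *Ctgf* was 0.473 of that in KPR- and that of *Thbs1* was 0.292, whereas the *Cyr61* level was 1.12 times that in KPR-. *Ctgf* and *Thbs1* each overlap an annotated gene on the opposite strand, as 7 of the 10 genes overlap another annotated gene, and the use of strand in counting is not given in the sources used here.

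The 2 CCN genes, close in level in KPR-, were far apart in KPR_restored. The *Ctgf* to *Cyr61* ratio of FPKM was 0.847 in KPR- and 0.357 in KPR_restored. The difference between their log2 differences was -1.25 (-1.37 to -1.12). *Thbs1* against *Cyr61* went from 0.188 to 0.0489, a difference of log2 differences of -1.94 (-2.11 to -1.77). Summed, *Ctgf* and *Cyr61* gave 119 FPKM in KPR- and 98.6 FPKM in KPR_restored, of which *Ctgf* made up 45.9% and 26.3%. A ratio within a library does not depend on the scaling between libraries.

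*Ankrd1*, *Amotl2* and *Lats2*, whose products act inside the cell, were near or above their KPR- level. *Ankrd1* (chr19:36111961-36120099, minus strand) encodes an ankyrin repeat protein of muscle and stressed epithelium that is among the most used YAP readouts. It had the highest level of the 10 genes in both libraries, at 226 FPKM in KPR- and 295 FPKM in KPR_restored, and its difference was 0.39 (0.35 to 0.43), from about 8905 and 11967 fragments. *Amotl2* (chr9:102716672-102733418, plus strand), an angiomotin that binds and restrains YAP, was at 27.7 and 26.7 FPKM, with a difference of -0.052 (-0.13 to 0.029). *Lats2* (chr14:57689662-57758388, minus strand), a Hippo kinase and itself a YAP target, was at 7.39 and 7.36 FPKM, with a difference of -0.0050 (-0.15 to 0.14). The intervals of *Amotl2* and *Lats2* included 0. Counted with their shortest coding transcripts they were wider, -0.53 to 0.46 for *Amotl2* and -0.48 to 0.47 for *Lats2*. The ratio of *Ctgf* to *Ankrd1* was 0.243 in KPR- and 0.0877 in KPR_restored, a difference of log2 differences of -1.47 (-1.57 to -1.36), so these targets did not share 1 direction. *Amotl2* to *Lats2* was 3.75 and 3.63, with a difference of -0.047 (-0.21 to 0.12).

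**Figure D2:**
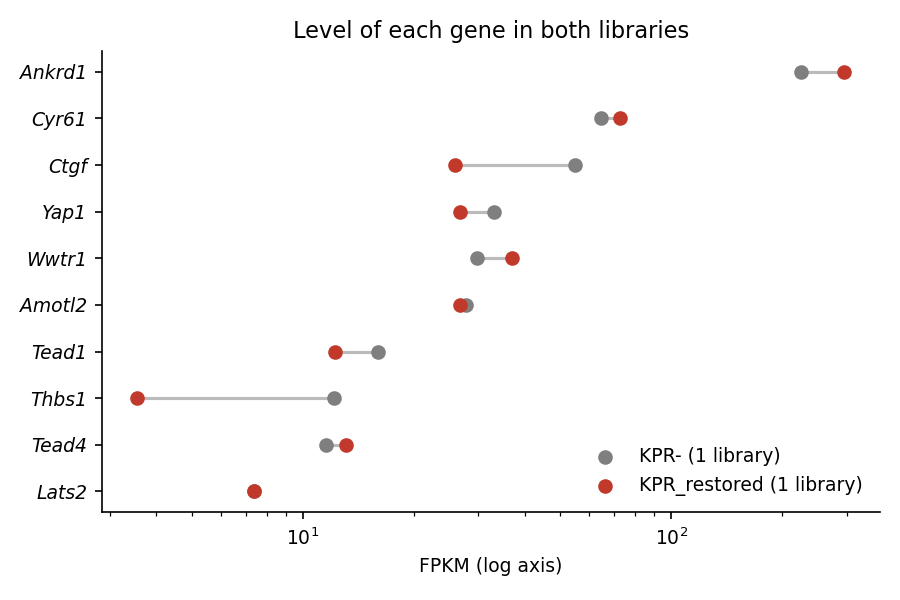
FPKM of the 10 genes in the libraries KPR- (0 h) and KPR_restored (16 h), on a log axis, with 1 point per library, a line joining the points of a gene, and genes in the order of their KPR- level. No error is drawn. *Ctgf* went from 54.8 to 25.9 and *Thbs1* from 12.2 to 3.55, while *Cyr61* went from 64.7 to 72.7.

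The cofactor genes differed in opposite directions while their sum was near constant. *Yap1* (chr9:7931999-8004596, minus strand) was at 33.1 FPKM in KPR- and 26.7 FPKM in KPR_restored, a difference of -0.31 (-0.39 to -0.23). *Wwtr1* (chr3:57455649-57575910, minus strand), which encodes TAZ, was at 29.7 and 36.9 FPKM, a difference of 0.31 (0.24 to 0.38). Neither reached 0.5. *Yap1* was the higher of the pair in KPR-, with a ratio of 1.11, and the lower in KPR_restored, with 0.724, and the difference of their log2 differences was -0.62 (-0.73 to -0.52). Together they gave 62.8 and 63.6 FPKM, and the *Yap1* share went from 52.7% to 42.0%.

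Of the TEAD genes, *Tead1* was lower and *Tead4* higher in KPR_restored, neither by 0.5. *Tead1* (chr7:112679318-112906807, plus strand), a DNA-binding partner of YAP and TAZ, was at 16.03 FPKM in KPR- and 12.2 FPKM in KPR_restored, a difference of -0.39 (-0.46 to -0.32). *Tead4* (chr6:128224288-128300823, minus strand), a related factor known for trophectoderm, was at 11.5 and 13.1 FPKM, a difference of 0.18 (0.038 to 0.33). Their ratio went from 1.39 to 0.933, with a difference of log2 differences of -0.57 (-0.74 to -0.41). The counts behind these intervals assume each gene's longest transcript. With its shortest coding transcript the *Tead1* interval became -0.80 to 0.020 and that of *Tead4* -0.48 to 0.81, whereas that of *Ctgf*, at -1.49 to -0.67, still lay below 0. Adding *Tead2* and *Tead3*, named because they complete the family, the 4 genes summed to 71.8 and 74.9 FPKM. *Tead2* made up the largest share, 47.8% and 52.7%, and *Tead1* went from 22.3% to 16.3%.

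**Figure D3:**
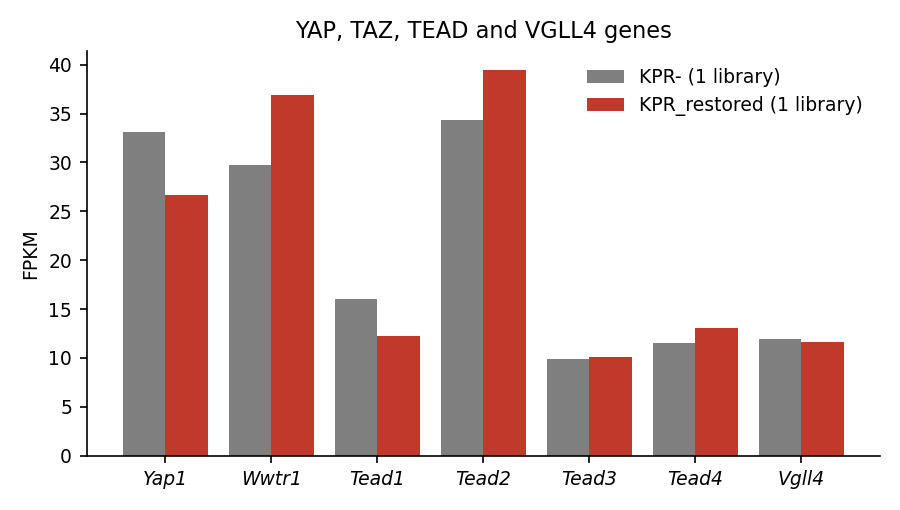
FPKM of the cofactor genes Yap1 and Wwtr1, the 4 TEAD genes and the TEAD cofactor Vgll4, as 1 bar per library on a linear axis from 0, with no error drawn. Yap1 (33.1 and 26.7 FPKM) and Tead1 were lower in KPR_restored, and Wwtr1 (29.7 and 36.9 FPKM), Tead2 and Tead4 were higher.

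Over the 10 genes, 0 were higher by 0.5 or more and 2, *Ctgf* and *Thbs1*, were lower. Of all 23183 genes 13.8% were higher and 12.9% lower by that rule, and of the 11231 genes with a mean of at least 1 FPKM, to which all 10 belonged, 12.1% were higher and 9.29% lower. The median difference of the 10 was -0.028, beside 0.0086 over those 11231 genes. Counted with the longest transcripts, the intervals of 4 genes lay below 0, those of 4 above 0, and 2 included 0. With the shortest coding transcripts these numbers were 3, 3 and 4. Of the expressed genes 0.267% had a difference below that of *Thbs1* and 1.12% below that of *Ctgf*. *Tead1* stood at 13.8%, *Yap1* at 19.0%, *Cyr61* at 66.8%, *Wwtr1* at 78.2% and *Ankrd1* at 82.7%. The genes nearest the limit of 0.5 below 0 were *Ctgf* outside it, at -1.08, and *Tead1* inside it, at -0.39.

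**Figure D4:**
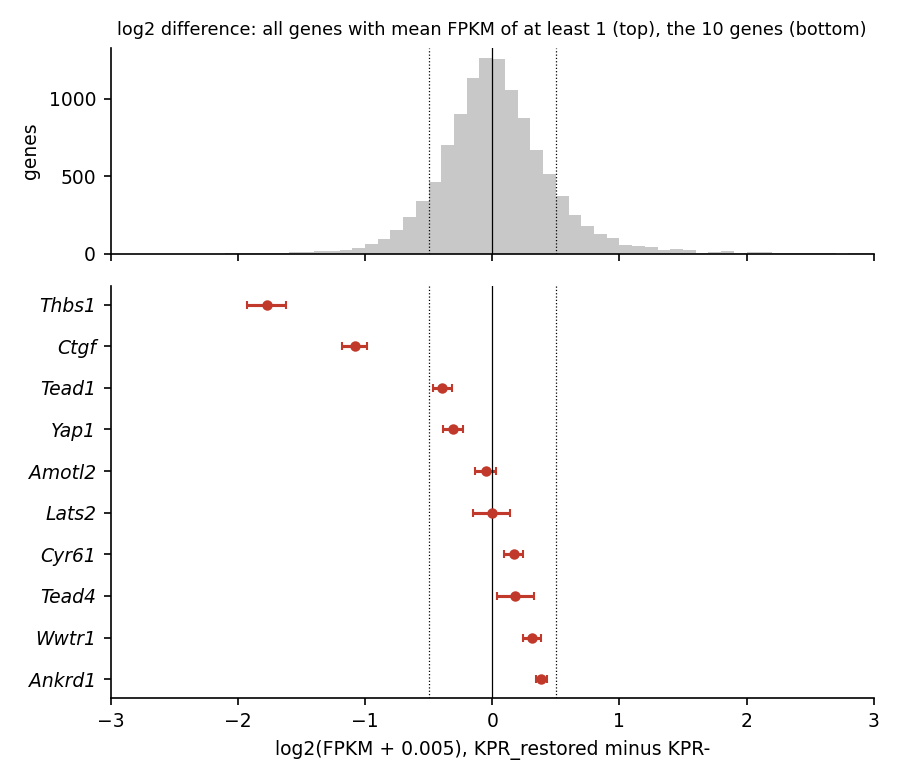
Histogram of log2 differences, KPR_restored minus KPR-, of the 11231 expressed genes (top), and the differences of the 10 genes with 95% counting intervals (bottom), on the same horizontal axis, with dotted lines at 0.5 in each direction. The 16 genes below -3 and 15 above 3 are not drawn. Ctgf at -1.08 and Thbs1 at -1.77 lie beyond the lower limit of -0.5, and the other 8 lie between -0.39 and 0.39.

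By level, the order in KPR- was *Ankrd1*, *Cyr61*, *Ctgf*, *Yap1*, *Wwtr1*, *Amotl2*, *Tead1*, *Thbs1*, *Tead4* and *Lats2*. Only *Thbs1* and *Tead4* were neighbours whose ratio, 1.05, had an interval that included 1 (0.963 to 1.15). In KPR_restored the order was *Ankrd1*, *Cyr61*, *Wwtr1*, *Amotl2*, *Yap1*, *Ctgf*, *Tead4*, *Tead1*, *Lats2* and *Thbs1*. There, the ratio of *Amotl2* to *Yap1* was 1.00 (0.946 to 1.06), that of *Yap1* to *Ctgf* 1.03 (0.963 to 1.10) and that of *Tead4* to *Tead1* 1.07 (0.991 to 1.16), and these neighbours did not differ beyond counting error. These intervals use each gene's longest transcript. Shorter transcripts give fewer fragments and wider intervals, and were not run for these ratios. On the longest transcripts, all other neighbours in either order differed beyond counting error. *Ctgf* thus went from place 3 to place 6 and *Thbs1* from place 8 to place 10. Across all genes, *Thbs1* had a level above 74.3% of genes in KPR- and 59.1% in KPR_restored.

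Differences also varied with transcript length over the whole table. The median difference was 0.087 in the 3058 expressed genes under 2000 bases and -0.18 in the 1375 of 6000 bases or more. The share lower by 0.5 was 7.10% in the first and 16.2% in the second. *Ctgf*, with a longest transcript of 2398 bases, lay in a class with a median of 0.039, and *Thbs1*, with 5848 bases, in one with a median of -0.049. *Tead1*, at 9964 bases, lay in the longest class. The part of length in these differences was not tested.

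The Hippo kinases, adaptors and upstream regulators gave 0 genes higher and 0 lower by 0.5 among 21 expressed of 23 listed. Over all expressed genes these shares were 12.1% and 9.29%. This list, like the lists below, was chosen with earlier results of these data known. The median difference of the 21 genes was -0.16, with a range of -0.45 to 0.17. Of the 21, 18 were below 0, beside 49.0% of all expressed genes. The median longest transcript of the 21 was 4720 bases, in a length class whose median was -0.049. *Amotl2* and *Lats2*, both on the side of restraint, were near 0 as given above. Of the 10 cofactor, TEAD and VGLL genes, 7 were expressed and 0 were past 0.5 in either direction, with a median of 0.022.

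Of 22 listed YAP and TAZ target genes 21 were expressed, and 7 (33.3%) were lower and 2 (9.52%) higher by 0.5. Of all expressed genes 9.29% were lower and 12.1% higher. The median of the list was -0.45. Over the 17 with a mean of at least 5 FPKM, 4 were lower and 1 higher, with a median of -0.28, and with a pseudocount of 1 the 21 gave 4 lower and 2 higher. The list holds *Ctgf*, *Cyr61*, *Ankrd1*, *Amotl2* and *Lats2* but not *Thbs1*, and without them it had 16 expressed genes, of which 6 were lower and 2 higher, with a median of -0.46. These genes too were listed with earlier results of these data known, so their counts are a description. *Arhgef17* was among the lower genes at -0.502, close to the limit. *Ccdc80*, a secreted matrix-binding protein, went from 7.18 to 2.21 FPKM, a difference of -1.70. *Gadd45a*, a growth arrest and DNA damage gene, was at 6.52 FPKM in KPR- and 24.4 FPKM in KPR_restored, a difference of 1.90. *Nt5e*, which encodes the ectonucleotidase CD73, was at 0.448 and 2.55 FPKM, a difference of 2.50. It was below 1 FPKM in KPR- and counted as expressed only through its level in KPR_restored. The list thus held genes past 0.5 in both directions. *Axl*, a receptor tyrosine kinase chosen here after its values were seen, was the most abundant lower gene, at 273 and 158 FPKM. In promoter sequence, 3 of the 11 further target genes with an entry held GGAATG, beside 12.6% of all windows. A gene can have more than 1 window.

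**Figure D5:**
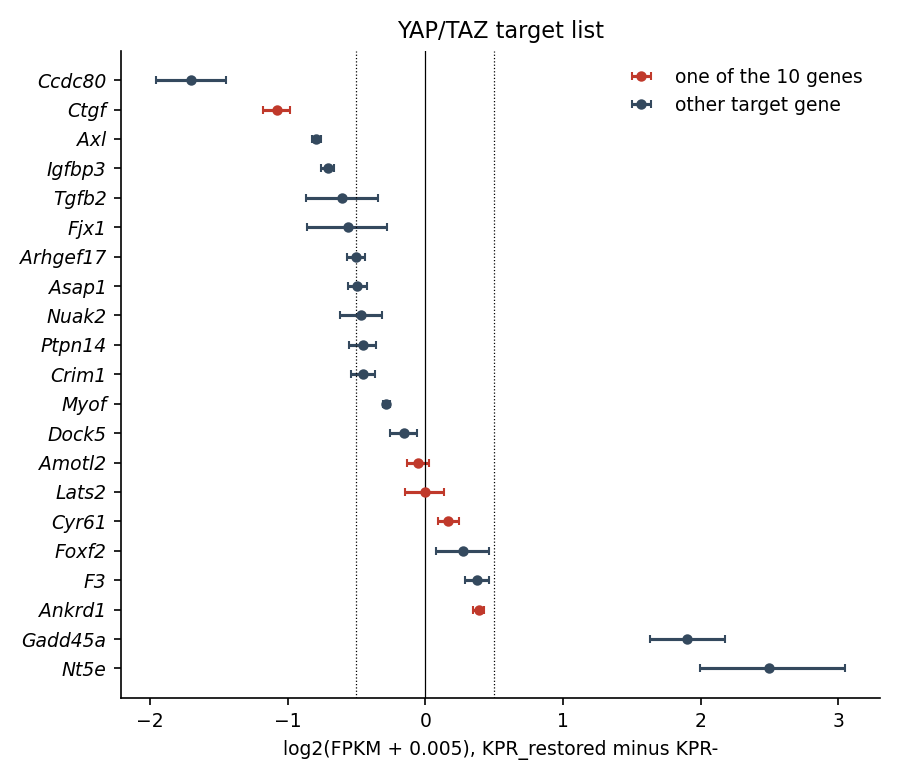
Log2 differences, KPR_restored minus KPR-, of the expressed genes of the YAP/TAZ target list with 95% counting intervals, ordered by difference. Red points are genes among the 10, and dotted lines mark differences of 0.5 in each direction. The list, which does not hold Thbs1, runs from Ccdc80 at -1.70 to Nt5e at 2.50, with 7 genes lower and 2 higher by 0.5. Nt5e counted as expressed only through its level in KPR_restored.

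Among relatives of the secreted targets, 2 of 4 expressed CCN genes were lower by 0.5, *Ctgf* and *Wisp1*. Of all expressed genes 9.29% were lower and 12.1% higher. *Ctgf* was among the genes chosen on these values, and without it and *Cyr61* the family had 1 of 2 lower, with a median of -0.16. *Wisp1*, a CCN protein of the WNT response, was low, at 1.35 and 0.857 FPKM, with a difference of -0.65 (-1.05 to -0.27). It was below 1 FPKM in KPR_restored and counted as expressed only through its level in KPR-. With a pseudocount of 1 its difference was -0.34, short of 0.5, and with its shortest coding transcript the interval, -1.94 to 0.63, included 0. Of 6 expressed thrombospondin and other matricellular genes 4 were lower and 0 higher, with a median of -0.77, and without *Thbs1*, chosen on these values, 3 of 5 were lower, with a median of -0.62. *Sparc*, a collagen-binding matricellular protein, was at 190 FPKM in KPR- and 101 FPKM in KPR_restored, a difference of -0.91 (-0.96 to -0.86). Of the 9 expressed receptors for these proteins, 1 (11.1%) was lower, near the share of all expressed genes. It was *Itgb1*, the integrin β1 subunit, at 279 and 186 FPKM, a difference of -0.58. *Cd47*, a thrombospondin-1 receptor chosen after its values were seen, was at 68.3 and 60.2 FPKM.

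The marker lists describe the cells behind these values. Epithelial keratins were abundant, with *Krt8* at 1711 and 1631 FPKM, and the epithelial list summed to 6110 and 5369 FPKM. The lung lineage markers *Sftpb*, *Sftpc* and *Scgb1a1* were at 0 in both libraries, and *Nkx2-1* was at 0.0444 and 0.0216 FPKM, so the lung label rests on the source tumour. The 5 leukocyte markers summed to 0.0409 and 0.0089 FPKM, with 3 at 0 in both. The 5 endothelial markers summed to 1.19 and 2.24 FPKM, nearly all of it *Kdr*. The 7 fibroblast markers summed to 12.7 FPKM in KPR- and 5.35 FPKM in KPR_restored. Most of this sum was *Col1a1*, at 12.2 and 4.21 FPKM. *Dcn*, under 1 FPKM, was higher in KPR_restored (0.173 and 0.742 FPKM), with an interval of 0.76 to 3.65. *Pdgfra* was at 0.273 and 0.363 FPKM, with an interval that included 0, and *Pdgfrb* (0.0264 and 0.0171 FPKM), *Col1a2* (0.0463 and 0.0180 FPKM), *Col3a1* (0.0171 and 0) and *Lum* (0 in both) were at or near 0. Fibroblasts also express *Ctgf* and *Thbs1*. Whether fibroblasts were present in either library, and any part of them in the *Ctgf* and *Thbs1* differences, was not tested. In bulk RNA fewer cells of a type and less RNA per cell cannot be told apart.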

How the data were processed

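RNA was extracted from immortalized KPR cells and sequenced as 1 poly(A)-selected library per condition (NEBNext Ultra II Directional, paired ends, NovaSeq). The authors trimmed reads, aligned them with TopHat to mm10 and deposited FPKM values per gene from Cufflinks; the annotation, and whether a geometric normalization that the methods also name was applied, are not given in the sources used here. The deposited FPKM of 23183 genes were compared as log2(FPKM + 0.005), KPR_restored minus KPR-, with differences of 0.5 or more called higher or lower. Genes with a mean of at least 1 FPKM were taken as expressed. Because each condition had 1 library, no test was made.

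Depth and mean fragment length were estimated from low FPKM values. In 572 and 586 genes with 1 annotated transcript, 79.9% and 82.3% of values were within 0.1 of a whole fragment at a mean fragment length of 212 bases. FPKM were then turned into estimated fragments with the longest transcript (GENCODE M21), and exact binomial (Clopper-Pearson) 95% intervals were computed, which cover counting error only. Promoter letters were searched in RefSeq windows of 250 bases.

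The 10 genes and the gene lists were chosen with earlier results of these data known. The pathway lists were Hippo kinases, adaptors and upstream regulators, cofactors and TEAD, YAP/TAZ targets, and MRTF/SRF factors and targets. The matrix lists were the CCN family, matricellular proteins and their receptors. The marker lists were epithelial, fibroblast, endothelial and leukocyte. Genes named were the 10, *Runx3*, the defining markers and, among expressed genes of each list past 0.5, the 2 highest and the 2 lowest by log2(FPKM + 1). Alternatives were other pseudocounts, filters, thresholds and scalings. Python 3.11.15 was used with numpy 2.4.6, pandas 2.3.3 and scipy 1.17.1.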

Additional observations from a re-analysis of the deposited data

How the results depend on the processing

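The counts of 0 of the 10 genes higher and 2 lower were the same under every alternative run. The filters on mean FPKM could not change them, since the lowest mean of the 10 was 7.38 (*Lats2*). The shortest coding transcript applies the same length to both libraries, so it could move a difference only by rounding. Of 60 alternative differences of the 10 genes, 59 lay within the counting interval, and 1 moved: *Thbs1* was -1.53 with a pseudocount of 1, which shrinks low values. Of all genes, 3193 were higher and 3002 lower in the values reported. With a pseudocount of 1 the counts were 1141 and 836, over genes with a mean of at least 1 FPKM 1358 and 1043, over those with at least 5 FPKM 872 and 641, and with a limit of 1 1625 and 1527, since fewer genes could pass. The 7 lower target genes became 4 with the pseudocount of 1. Scaling to the median, to TPM and to the upper quartile moved every difference by -0.0086, -0.0064 and -0.034. Leaving out a library was not possible, and no paired analysis was possible because each group has 1 library. Depth limits genes such as *Runx3*, whose interval spanned -0.79 to 0.81.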

Other observations

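Targets of MRTF and serum response factor, a pathway that shares readouts with YAP, gave 1 gene higher and 1 lower by 0.5 among 11 expressed of 17 listed, with a median difference of -0.011. These were 9.09% each way, near the shares of all expressed genes, 12.1% higher and 9.29% lower. *Fhl2*, a LIM-domain cofactor, was at 28.0 FPKM in KPR- and 41.6 FPKM in KPR_restored, a difference of 0.57. *Vcl*, the focal adhesion protein vinculin, was at 66.0 and 43.7 FPKM, a difference of -0.60. Among the marker lists, *Krt7*, an epithelial keratin, was at 1229 and 743 FPKM, a difference of -0.73, and *Kdr*, an endothelial receptor, was at 1.10 and 2.05 FPKM, a difference of 0.89.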
